A study of Mus musculus with 28 samples.

Results

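The genes described here encode 33 subunits of the receptors for glutamate and for GABA, the main excitatory and the main inhibitory transmitter of the brain. Members were taken by gene symbol, and each was represented by the brightest of the probe sets annotated to that symbol alone. Of the 33, 31 had such a probe set, among the 18193 genes measured in this way, and 29 were bright enough to be tested, among 13927 genes tested. Grin1 and Gabbr2 were not analysed here, and Grin2a and Gabrg3 were measured but lay below the limit on dim genes.

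The study used 28 Affymetrix Mouse 430 2.0 arrays of mouse tissue: 10 medulloblastomas, 6 gliomas and 12 normal brains. Medulloblastoma arises in the cerebellum, and glioma resembles glia. The title of the series names Rictor, a subunit of the kinase complex mTORC2. Every mouse but 1 was labelled p53-/- with the transgene hGFAP-Cre, in which a human GFAP promoter, active in neural progenitors and astroglia, drives the recombinase. The genotype labels do not say which cells of a mouse had lost p53 or Rictor. By genotype, the medulloblastomas comprised 5 Rictor-/-, 2 Rictor+/- and 3 hGFAP-Cre p53-/- tumours with no Rictor allele named. The gliomas comprised 1 Rictor-/-, 4 Rictor+/- and 1 of p53-/- alone. The normal brains comprised 5 Rictor-/-, 5 Rictor+/-, 1 of p53-/- alone and 1 from a normal mouse (Z2). Controls therefore carried the labels hGFAP-Cre and p53-/- as well, apart from Z2. No label gives an age, the region a normal brain was cut from, or whether each array stands for its own animal. The p-values here therefore describe only how these samples scatter, and that scatter may be technical. Tumour pieces held at least 70% tumour cells, per the labels. Codes such as C2 are the arrays' own labels. The design text of the series lists 22 medulloblastomas, 6 gliomas and 24 normal brains, and the rest of these were not used here.

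The Rictor probe set had 68.8 to 236 (median 190.4) in Rictor-/- medulloblastomas, 261 and 277 in Rictor+/- ones and 223 to 273 (median 258) in those of p53-/- alone, and 213 to 444 (median 238) in Rictor-/- against 250.5 to 389 (median 252) in Rictor+/- normal brains. The position of this probe set relative to the deleted part was not checked here. The normal brains were not alike. In the arrays Z2, B2 and C5 the granule neuron gene Gabra6 had intensities of 4918, 1740.4 and 4153, against 1.1 to 116 (median 8.2) in the other 9. These 3 are called Gabra6-rich below and are given apart. The summed intensity of 7 measured forebrain neuron markers was 514 to 1298 (median 702) in the Gabra6-rich normal brains and 3005 to 5180.5 (median 4087) in the other 9. Among the tumours, Gabra6 reached 1638 and 1324 in medulloblastomas B6 and C6, and 675 and 1014 in gliomas B2 and B7. Glioma A4 had 204, the highest of the rest. Granule neuron markers were called higher in medulloblastomas than in normal brains for 8 of 10 genes, and oligodendrocyte precursor markers in gliomas for 8 of 8. The ratio of 3' to 5' signal, which is higher in degraded RNA, was 1.49 to 4.38 (median 2.57) for actin in medulloblastomas, 1.73 to 2.78 (median 2.21) in gliomas and 1.99 to 6.21 (median 3.47) in normal brains. For Gapdh it was 0.874 to 1.63 (median 1.25) in medulloblastomas, 1.04 to 1.74 (median 1.44) in gliomas and 0.972 to 2.58 (median 1.12) in normal brains. The medians of the 3 tissues were thus in opposite order for actin and Gapdh. The part of this ratio in the differences below was not tested.

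As background, fast excitatory transmission runs through ionotropic glutamate receptors, which are tetramers of AMPA (Gria), NMDA (Grin) or kainate (Grik) subunits. Metabotropic glutamate receptors (Grm) and the GABA-B receptor are G protein-coupled and tune release and excitability. The GABA-A receptor is a pentameric chloride channel whose alpha, beta, gamma and delta subunits set where in the neuron and in which cell types it works. Granule cells of the cerebellum use a subunit set of their own, and glial precursors carry AMPA and kainate receptors too.

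Most receptor genes were lower in both tumours than in normal brain, and 11 were lower in medulloblastoma than in glioma. In medulloblastomas, 25 of the 29 tested members were lower than in normal brain and 0 were higher (limma, adjusted p under 0.05), where 32% of all genes tested were called lower and 32.2% higher. The median log2 difference of the 29 was -2.23, against 0.01 over all genes. In gliomas, 20 were lower and 2 higher, where 25.5% of all genes were called lower and 28.4% higher, and the median of the members was -1.82 against 0.05. Medulloblastomas set against gliomas directly had 11 members lower and 0 higher, where 14.8% of all genes were called lower and 13.6% higher, with medians of -0.25 and 0.01. The 29 were those above the brightness limit, so a member could pass through normal brain alone. Log2 differences are on the scale of log2(intensity + 6.3) and understate the change of a dim gene. The share of all genes whose ranges do not overlap between these tissues was not counted. A lack of overlap is therefore given below as a description of single genes.

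Of the 29, 15 were lower in both tumours than in normal brain with no call between the tumours, 6 were lower in medulloblastoma than in both other tissues with no call in glioma, and 3 were lower in all 3 comparisons. The other 5 were Grin3a, Gria4, Grin2c, Grm4 and Grik2. The members called between the tumours numbered 6 and 7 when arrays with the title prefix YZ or YZ2 were fitted by themselves (4 and 2 gliomas). The labels do not say whether the prefix marks a batch. Within those prefixes, 22 and 25 members were called for medulloblastoma and 18 and 16 for glioma. Markers of mature neurons moved with the differences from normal brain. Of 10 such markers, 9 were lower in medulloblastoma and 10 in glioma, and their summed intensity was 2722 to 12784 (median 4376) in medulloblastomas, 1589.6 to 5906 (median 4171) in gliomas and 17279 to 22276 (median 20200.4) in normal brains. Between the tumours 2 of the 10 were higher in medulloblastoma and 0 lower (median 0.24). With the calls between the tumours moved the oligodendrocyte precursor markers, of which 8 of 8 were lower in medulloblastoma than in glioma (median -3.60). Their summed intensity was 1040.1 to 5015 (median 2173) in medulloblastomas, 11167 to 18385 (median 16398) in gliomas and 799 to 3171 (median 1576) in normal brains. Other marker sets moved too. Between the tumours 4 of 7 astrocyte and 3 of 7 oligodendrocyte markers were lower in medulloblastoma (medians -1.35 and -1.65). Granule neuron markers were higher there for 7 of 10. Against normal brain 6 of 7 forebrain neuron and 7 of 7 oligodendrocyte markers were lower in medulloblastoma. In glioma these were 7 of 7 and 5 of 7. All 4 tested proliferation markers were higher in both tumours than in normal brain. The part of any marker set in the receptor differences was not tested. In bulk tissue, fewer cells of a type and less RNA per cell cannot be told apart.

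**Figure D1:**
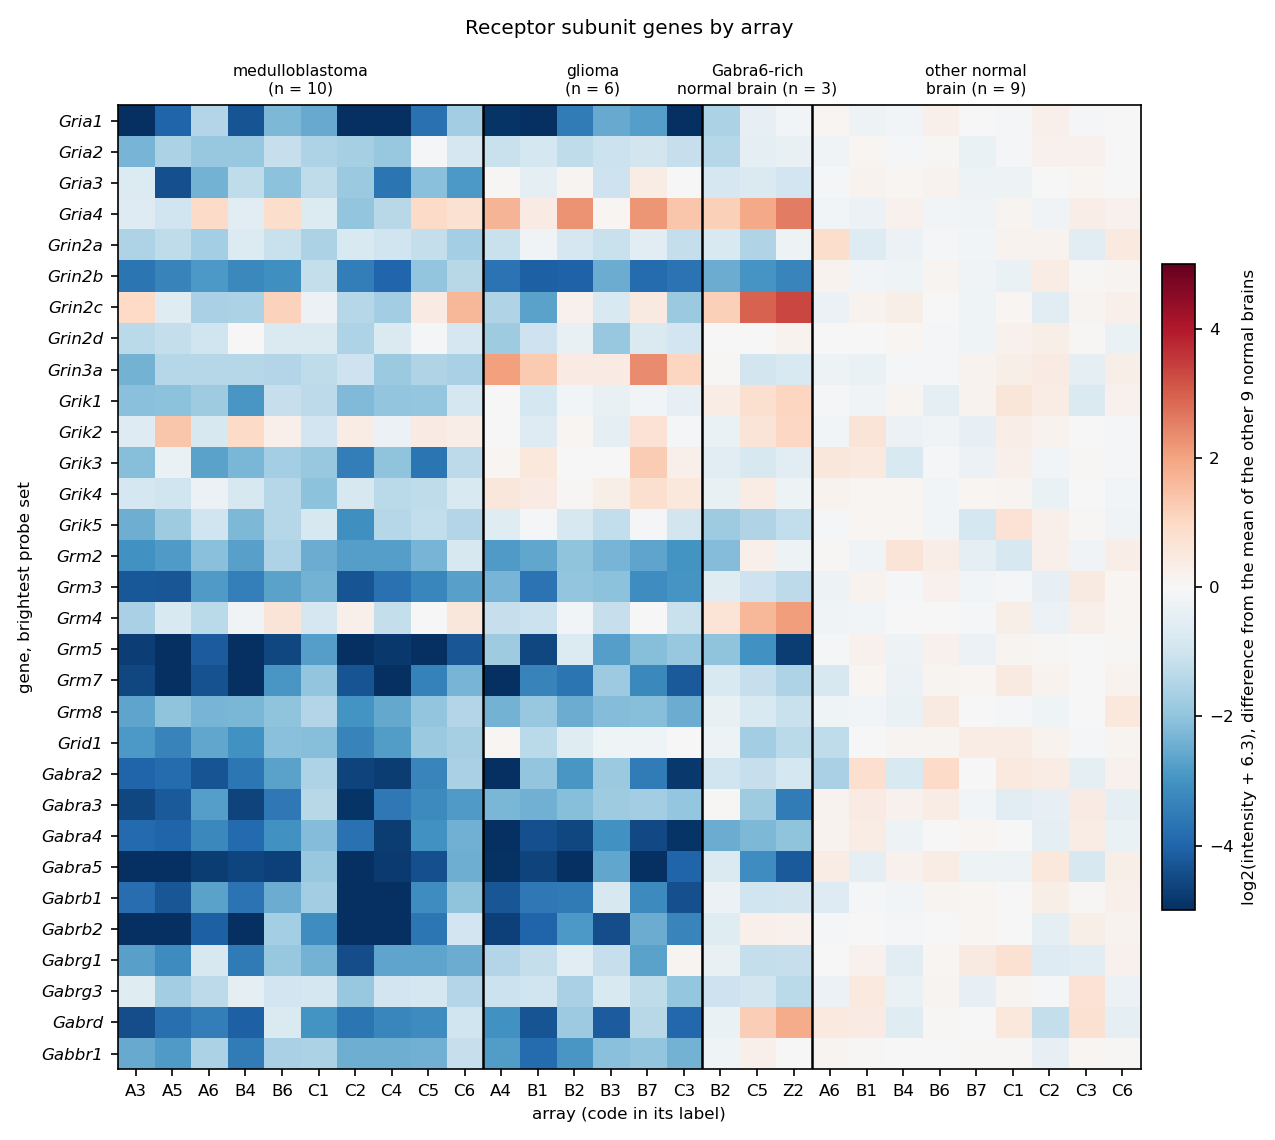
Each row is 1 of the 31 measured receptor genes and each column 1 array, grouped as medulloblastoma, glioma, Gabra6-rich and other normal brain. Colour gives log2(intensity + 6.3) minus the mean of the other 9 normal brains, with colours saturated beyond 5 log2 units; red is higher, Grin3a and Gria4 are red in most gliomas, and Gria4, Grin2c and Grm4 in the Gabra6-rich normal brains.

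**Figure D2:**
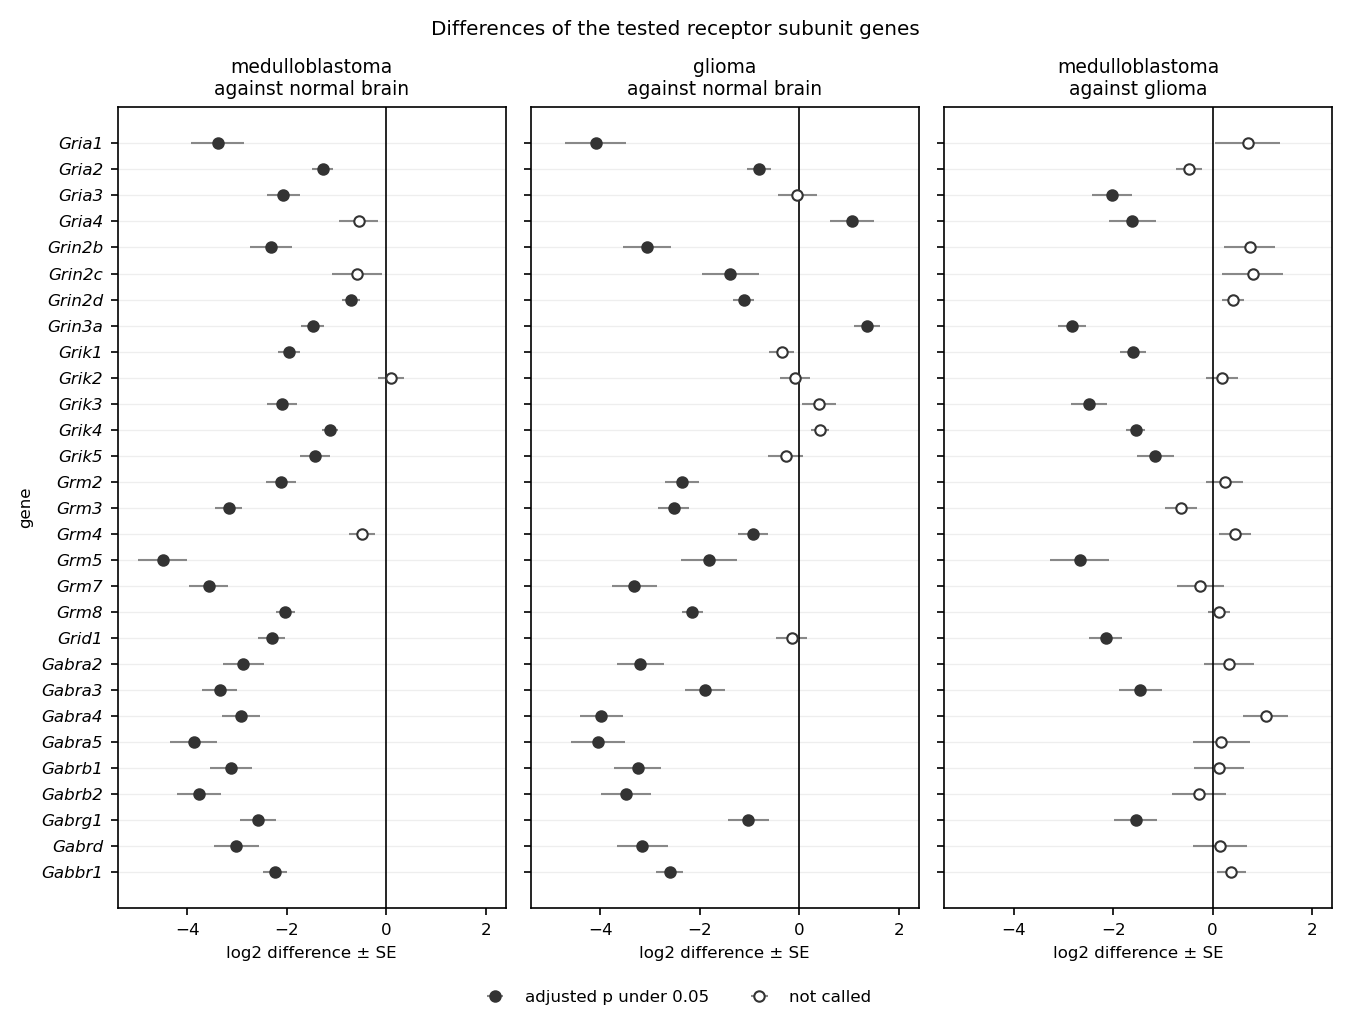
Log2 differences with standard errors for the 29 tested genes in 3 comparisons, from the fit over 28 arrays; filled points passed an adjusted p of 0.05. All kainate genes (Grik) lie within 0.41 log2 units of 0 in the glioma panel, and 4 of the 5 are called lower in the panel of medulloblastoma against glioma.

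Among the AMPA subunits, Gria1 was the lowest relative to normal brain in both tumours. Its intensity was 10.1 to 294 (median 50.8) in medulloblastomas and 2 to 141 (median 45) in gliomas, against 763, 271 and 616 in the Gabra6-rich arrays (Z2, B2, C5 throughout) and 688 to 993 (median 821) in the other 9. Every glioma lay below every normal brain, while medulloblastoma A6 (294) passed normal brain B2. The log2 difference from normal brain was -3.39 (SE 0.54, adjusted p = 4.8e-06) in medulloblastoma and -4.10 (SE 0.62, adjusted p = 4.1e-06) in glioma. Gria2, the subunit that makes AMPA channels impermeable to calcium, differed less, by -1.28 (SE 0.21, adjusted p = 7.2e-06) in medulloblastoma and -0.81 (SE 0.24, adjusted p = 0.006) in glioma. Its intensity was 416 to 2002 (median 678) in medulloblastomas and 868 to 1127 (median 976) in gliomas, against 1640.2, 767 and 1524 in Gabra6-rich and 1689 to 2444 (median 2144) in the other normal brains. All gliomas lay below the other 9, and medulloblastoma C5 alone reached them. Between the tumours Gria2 was -0.47 (SE 0.25, adjusted p = 0.17), and it passed without C5 (-0.59). Within the prefix YZ neither difference from normal brain was called (-1.05 in medulloblastoma and -0.70 in glioma), and the dimmest of the 3 probe sets of Gria2 was not called either (-0.23 and -0.03).

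Gria3 differed between the tumours. It had 35.6 to 544 (median 201) in medulloblastomas and 419 to 1134 (median 891) in gliomas, against 439, 486 and 526 in Gabra6-rich and 725 to 996 (median 883) in the other normal brains. Gliomas spanned the range of normal brain, and all medulloblastomas lay below all of the 9 other normal brains. The log2 difference of medulloblastoma from glioma was -2.02 (SE 0.41, adjusted p = 0.00046), and that of glioma from normal brain -0.04 (SE 0.39, adjusted p = 0.94). Against normal brain medulloblastoma was -2.07 (SE 0.34, adjusted p = 7.1e-06). Within the prefix YZ2 the difference between the tumours was -1.38 and not called.

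Gria4, an AMPA subunit used by granule cells, Bergmann glia and glial precursors, gave a different answer from each probe set. On the brightest it had 48.6 to 416 (median 138) in medulloblastomas and 227 to 1016 (median 628) in gliomas, against 1256, 489.5 and 804 in Gabra6-rich and 171 to 268 (median 192) in the other normal brains. All gliomas but B3 lay above all of the 9 other normal brains, and 4 of the 6 gliomas fell inside the span of the Gabra6-rich ones. The log2 difference of glioma from normal brain was 1.06 (SE 0.45, adjusted p = 0.049), and that of medulloblastoma -0.56 (SE 0.39, adjusted p = 0.22). The second brightest probe set went the other way in glioma, with 24.6 to 233 in gliomas against 116 to 456 in normal brains and a log2 difference of -1.19 (SE 0.42, adjusted p = 0.02, limma over all probe sets). The third was not called (0.25), and in the same fit of single probe sets the brightest just missed the threshold (adjusted p = 0.050). On the mean of its probe sets Gria4 was 0.04 in glioma. The call on the brightest was lost under 29 of 43 alternatives, among them the omission of any 1 of 19 arrays, with values of 0.88 to 1.30 over all 28 such omissions. Those arrays were medulloblastomas B4, C6, A3, C1, C5 and A5, gliomas B7, A4, B2 and C3, and normal brains C2, A6, C1, B6, B7, C6, B1, B4 and C3. Between the tumours Gria4 was -1.61 (SE 0.48, adjusted p = 0.012) on the brightest probe set, a call lost within either prefix (-1.93 and -1.28), without glioma A4 (-1.49) and without gliomas B2 and B7 together (-1.22), and -0.73 and not called on the second.

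The bases before the annotated start of Gria4 are shown because the brightest probe set of this gene separated the Gabra6-rich from the other normal brains. The 250 bases come from RefSeq (GRCm38.p6, minus strand, chr9:4796235-4796484, upstream of the gene) and run 5′ to 3′, with matches to the motifs described below in capitals.
Gria4: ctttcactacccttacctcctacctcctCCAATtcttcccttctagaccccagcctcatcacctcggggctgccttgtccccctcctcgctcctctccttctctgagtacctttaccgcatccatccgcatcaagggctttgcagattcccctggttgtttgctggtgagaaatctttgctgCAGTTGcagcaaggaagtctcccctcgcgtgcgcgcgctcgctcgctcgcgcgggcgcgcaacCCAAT
The capitals are CCAAT boxes and 1 E-box. Motifs were searched on both strands in 250-base windows before annotated starts. For members, only windows that end at the outer start of the gene were counted, which 13 of the 33 had. The windows of all genes were not limited to outer starts, so the 2 sets are unlike in this. The E-box, CANNTG, was in 4 of the 13 and in 66.2% of the 32851 windows of all genes. The GC box, GGGCGG, was in 8 of the 13 and 32.7% of all windows. The CCAAT box was in 7 and 33.9%. The TATA box, TATAAA, was in 1 and 12.4%. The SOX motif, AACAAT, was in 2 and 9.42%. These are matches of letters, and some overlap one another.

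Among the NMDA subunits, Grin3a was called higher in glioma than in normal brain. Grin3a encodes GluN3A, a glycine-binding subunit that lowers the calcium permeability of NMDA receptors and is found in young neurons and in oligodendrocytes. Medulloblastomas had 17.8 to 55.5 (median 39.5). The 6 gliomas had 636, 512, 302, 256, 162 and 159.5 (B7, A4, B1, C3, B3 and B2). Normal brains had 68.3, 124 and 60.6 where Gabra6-rich and 83.4 to 159.8 (median 115) in the other 9. All gliomas but B2 lay above all normal brains, B2 lay just under normal brain C2, and all medulloblastomas lay below all normal brains. The log2 differences were 1.35 (SE 0.26, adjusted p = 0.00011) for glioma and -1.47 (SE 0.23, adjusted p = 3.6e-06) for medulloblastoma against normal brain, and -2.82 (SE 0.28, adjusted p = 2.1e-08) between the tumours. Within the prefix YZ2, which holds 2 gliomas, the glioma difference was 1.24 and not called, and within YZ it was 1.42.

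Grin2b, the NMDA subunit of forebrain and of the developing brain, fell in both tumours, with -2.32 (SE 0.43, adjusted p = 3.3e-05) in medulloblastoma and -3.06 (SE 0.49, adjusted p = 8.5e-06) in glioma. Its intensity was 10.6 to 110 (median 23.9) in medulloblastomas and 9.4 to 41.2 (median 13.3) in gliomas, against 20.6, 41.8 and 27.8 in Gabra6-rich and 207 to 339 (median 271) in the other normal brains. The Gabra6-rich normal brains lay within the range of the medulloblastomas, and the other 9 above every tumour. Within the prefix YZ the medulloblastoma difference was -1.37 and not called. Of the 2 other probe sets of Grin2b above the brightness limit, 1 was called lower in both tumours (-2.94 in medulloblastoma and -3.82 in glioma). The dimmer was called in neither (0.04 and -0.20). Grin2c, the subunit of mature granule cells, showed the opposite order among normal brains, with 608, 133 and 468 in Gabra6-rich and 34.5 to 68.8 (median 59.2) in the others. Medulloblastomas had 11.7 to 185 (median 38.2), highest in C6, and gliomas 3.3 to 76 (median 22.2).

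Against normal brain Grin2c differed by -0.59 (SE 0.50, adjusted p = 0.31) in medulloblastoma and -1.39 (SE 0.57, adjusted p = 0.042) in glioma. The glioma call was lost under 12 of 43 alternatives, including the omission of the 3 Gabra6-rich normal brains (-1.08). It was lost without any 1 of gliomas A4, B1, C3 and B3 (-1.36, -1.06, -1.15 and -1.42) or of normal brains B2 and B4 (-1.29 and -1.41), and within the prefix YZ2 the difference turned to 0.12. Grin2d, a subunit of embryonic brain and interneurons, had 8.3 to 37.1 (median 18.6) in medulloblastomas and 5.1 to 26.7 (median 15.2) in gliomas, against 27.8 to 46 (median 37.1) in normal brains. Its differences were -0.71 (SE 0.18, adjusted p = 0.0016) in medulloblastoma and -1.12 (SE 0.21, adjusted p = 7.7e-05) in glioma. The medulloblastoma call was lost within the prefix YZ (-0.41) and on the mean of its probe sets (-0.28), and its other probe set was not called in either tumour (0.14 and 0.36). Grin2a, which replaces Grin2b as neurons mature, was too dim for the test, at 0.4 to 7.5 (median 2.95) in medulloblastomas, 3.4 to 13 (median 4.9) in gliomas and 1.4 to 34.3 (median 12.8) in normal brains.

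Most kainate subunits were lower in medulloblastoma than in both glioma and normal brain. Of 8 oligodendrocyte precursor markers, 8 were lower in medulloblastoma than in glioma. Against normal brain 2 of them were lower, 1 was higher and 5 were not called (median -0.31). Grik1, Grik2 and Grik3 form channels of their own, while Grik4 and Grik5 bind the ligand with high affinity and need one of the other 3 to form a channel. Of the 5 genes, 4 were lower in medulloblastoma than in normal brain, 0 were called in glioma, and 4 were lower in medulloblastoma than in glioma. Over all genes, 32% were called lower in medulloblastoma than in normal brain and 14.8% lower than in glioma. The exception in medulloblastoma was Grik2, which had 49.1 to 280.1 (median 126) in medulloblastomas and 63.3 to 172 (median 97.5) in gliomas, against 74.1 to 214 (median 96.8) in normal brains. Its log2 differences were 0.10 (SE 0.26, adjusted p = 0.76) against normal brain and 0.19 (SE 0.31, adjusted p = 0.7) against glioma.

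Grik3 had 8.9 to 145 (median 39.6) in medulloblastomas and 183 to 453 (median 212) in gliomas, against 126, 127 and 106 in Gabra6-rich and 109 to 276 (median 176) in the other normal brains. Every glioma lay above every medulloblastoma, and the highest glioma, B7, lay above all normal brains. The log2 difference of medulloblastoma from glioma was -2.49 (SE 0.36, adjusted p = 8.9e-06), that of medulloblastoma from normal brain -2.09 (SE 0.30, adjusted p = 1e-06), and that of glioma from normal brain 0.40 (SE 0.34, adjusted p = 0.34). Grik4 separated the tumours likewise, with 3.1 to 25.5 (median 13.9) in medulloblastomas, 34.1 to 60.9 (median 47.6) in gliomas, 26.1, 24 and 44.2 in Gabra6-rich and 24.9 to 38 (median 35.2) in the other normal brains. Its difference between the tumours was -1.54 (SE 0.19, adjusted p = 9.6e-07), and again no medulloblastoma reached the lowest glioma. Against normal brain Grik4 was 0.41 (SE 0.18, adjusted p = 0.062) in glioma, which passed the threshold under 6 of 43 alternatives, 4 of them the omission of 1 array (medulloblastoma A6, 0.42; medulloblastoma C1, 0.43; glioma B2, 0.47; normal brain C5, 0.44).

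Grik1 was dim in medulloblastoma, at 1.1 to 24.4 (median 8.2), against 24.6 to 48.7 (median 40.9) in gliomas. The highest medulloblastoma, C6, lay just under the lowest glioma, B1. Normal brains had 112, 66.7 and 91.9 where Gabra6-rich and 27.4 to 79.2 (median 55.3) in the other 9, all above every medulloblastoma. The log2 differences were -1.60 (SE 0.27, adjusted p = 4.7e-05) between the tumours and -1.96 (SE 0.22, adjusted p = 2.1e-08) for medulloblastoma against normal brain. Grik5 overlapped more, with 3.7 to 41.7 (median 24.2) in medulloblastomas and 29.4 to 71.9 (median 44.9) in gliomas, against 29.6, 18 and 23.1 in Gabra6-rich and 39.6 to 133 (median 81) in the other normal brains. Its difference between the tumours, -1.15 (SE 0.37, adjusted p = 0.021), was no longer called without glioma A4 (-1.17). It was also not called without gliomas B2 and B7 (-1.05) or within the prefixes YZ and YZ2 (-0.51 and -1.53). Against normal brain Grik5 was -1.43 (SE 0.31, adjusted p = 0.00022) in medulloblastoma, but -0.47 and not called within YZ. Neto1, an auxiliary subunit of kainate receptors, had -2.43 (SE 0.42, adjusted p = 7.1e-05) between the tumours and -2.69 (SE 0.34, adjusted p = 1.9e-07) in medulloblastoma against normal brain, with -0.25 and no call in glioma.

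Grid1, the delta-type subunit that links synapses through cerebellins, also separated the tumours. It had 5.6 to 32.5 (median 12.6) in medulloblastomas and 42 to 125 (median 97.9) in gliomas, against 41.8, 95.2 and 29.7 in Gabra6-rich and 44.7 to 152 (median 127) in the other normal brains. Medulloblastomas lay below every glioma, and gliomas overlapped the other normal brains. The log2 difference was -2.15 (SE 0.33, adjusted p = 1.8e-05) between the tumours and -2.31 (SE 0.27, adjusted p = 5.2e-08) in medulloblastoma against normal brain, and -0.15 (SE 0.31, adjusted p = 0.71) in glioma. The call between the tumours was lost when only arrays sharing a code were fitted, with the code as a replicate block. The other probe set of Grid1 was also called lower between the tumours (-0.86, limma over all probe sets). It was not called in medulloblastoma against normal brain (-0.36).

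**Figure D3:**
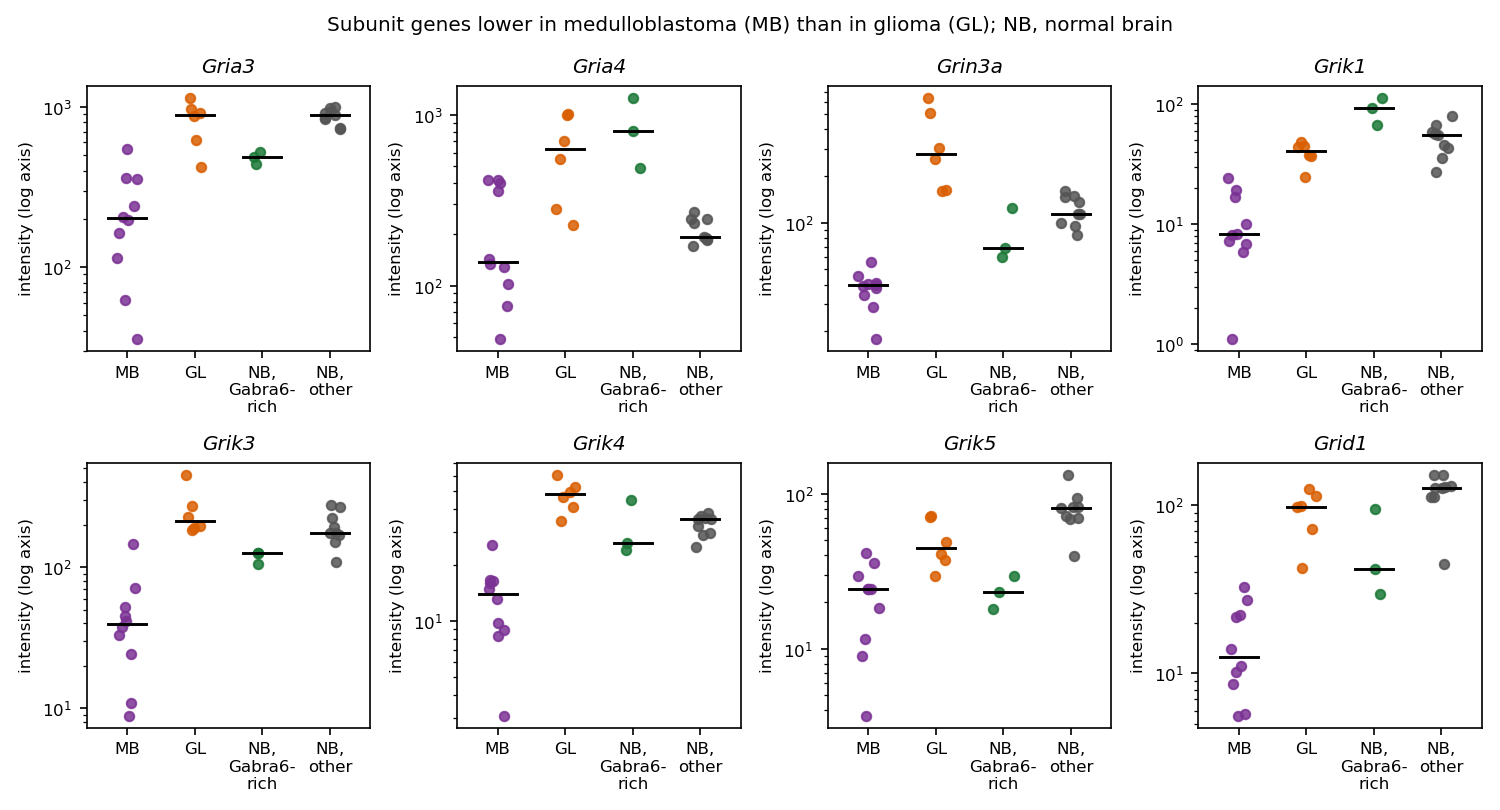
Intensity on a log axis of 8 subunit genes called lower in medulloblastoma (MB) than in glioma (GL), with normal brain (NB) in its Gabra6-rich and other arrays; each point is 1 array and each bar the median of its group. The genes were chosen after their values were seen. Gria4 was called on its brightest probe set only. For Grin3a, Grik1, Grik3, Grik4 and Grid1 no medulloblastoma reaches the lowest glioma. How many of all genes separate in this way was not counted.

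Of 6 tested metabotropic receptors, 5 were lower in medulloblastoma and all 6 in glioma, where 32% and 25.5% of all genes were. Grm5, which couples to Gq and calcium release, had the largest log2 difference of any member in medulloblastoma on the scale of log2(intensity + 6.3). By the ratio of medians Gabra5 fell further, 51.1-fold lower against 32.9-fold lower for Grm5. It had 0.3 to 116 (median 24.2) in medulloblastomas and 29 to 513 (median 199.5) in gliomas, against 24.3, 201 and 96.1 in Gabra6-rich and 667 to 957 (median 858) in the other normal brains. The 9 other normal brains lay above every tumour, whereas the Gabra6-rich ones lay within the range of the gliomas or below it, with Z2 close to the median of the medulloblastomas. The log2 difference from normal brain was -4.49 (SE 0.49, adjusted p = 1.4e-08) in medulloblastoma and -1.82 (SE 0.56, adjusted p = 0.008) in glioma, and medulloblastoma lay -2.67 (SE 0.60, adjusted p = 0.0013) from glioma. Without the 3 Gabra6-rich normal brains the first 2 were -4.94 and -2.23. The glioma call was lost with tissue as the only term (-1.49), and within the prefix YZ both it (-1.20) and the call between the tumours (-2.11) were lost.

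Grm3, a Gi-coupled receptor of astrocytes and neurons, had the smallest adjusted p of any member in medulloblastoma, with -3.16 (SE 0.27, adjusted p = 2.2e-10). It had 19.8 to 95.1 (median 45) in medulloblastomas and 34.2 to 126 (median 79.8) in gliomas, against 201, 330.1 and 245 in Gabra6-rich and 384 to 692 (median 492) in the other normal brains, so that no tumour reached the lowest normal brain. In glioma the log2 difference was -2.53 (SE 0.31, adjusted p = 2e-07). Grm2, its closest relative and a receptor of nerve terminals, had 1.4 to 29.2 (median 4.1) in medulloblastomas and 1.6 to 9.2 (median 3.9) in gliomas, against 7.6 to 91.7 (median 53.7) in normal brains, and differed by -2.11 (SE 0.30, adjusted p = 8.7e-07) and -2.35 (SE 0.34, adjusted p = 2.7e-06).

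Of the group III receptors, which damp transmitter release, Grm7 and Grm8 fell in both tumours. Grm7 had 1 to 104 (median 14.8) in medulloblastomas and 6.4 to 115 (median 31.7) in gliomas, against 141, 244 and 188 in Gabra6-rich and 238 to 574 (median 450.4) in the other normal brains, with no overlap between tumours and normal brains. Its log2 differences were -3.57 (SE 0.39, adjusted p = 1.5e-08) and -3.32 (SE 0.45, adjusted p = 9.3e-07). Grm8 was also without overlap, at 1.5 to 16.4 (median 7.85) in medulloblastomas, 4.8 to 10.4 (median 6.8) in gliomas and 22.3 to 82.7 (median 49.2) in normal brains, and differed by -2.03 (SE 0.19, adjusted p = 7.6e-10) and -2.15 (SE 0.21, adjusted p = 9.4e-09). Grm4, the group III receptor of granule cell parallel fibres, was not called in medulloblastoma. It had 19.1 to 115 (median 51) in medulloblastomas and 28.6 to 73.7 (median 30.1) in gliomas, against 328, 121 and 239 in Gabra6-rich and 57.7 to 88.9 (median 70.2) in the other normal brains. Medulloblastomas spanned the range of the other normal brains, and their difference of -0.49 (SE 0.26, adjusted p = 0.1) passed without medulloblastoma B6 (-0.63), with tissue as the only term (-0.82) and within the prefix YZ (-1.31). In glioma it was -0.94 (SE 0.30, adjusted p = 0.01), and within the prefix YZ2 -0.69, not called.

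All 8 tested GABA-A subunits were lower in both tumours than in normal brain, where 32% of all genes were in medulloblastoma and 25.5% in glioma. Gabra5, a subunit of hippocampal extrasynaptic receptors, had 0.3 to 68.7 (median 4.4) in medulloblastomas and 0.6 to 39.2 (median 3.8) in gliomas, against 8.8, 161 and 25.8 in Gabra6-rich and 155 to 396 (median 316) in the other normal brains. The other 9 normal brains lay above every tumour, and Gabra6-rich Z2 and C5 lay within the range of the tumours. The log2 differences were -3.87 (SE 0.47, adjusted p = 7e-08) in medulloblastoma and -4.05 (SE 0.54, adjusted p = 6.8e-07) in glioma. Gabra4, a partner of the delta subunit in thalamus and striatum, had 18.1 to 136 (median 52.7) in medulloblastomas and 14.1 to 73.3 (median 21.7) in gliomas, against 153, 111 and 131 in Gabra6-rich and 459.8 to 834 (median 658) in the other normal brains. No glioma reached the lowest normal brain, while medulloblastomas C1 and C6 passed Gabra6-rich B2. It differed by -2.92 (SE 0.38, adjusted p = 2.3e-07) and -3.98 (SE 0.43, adjusted p = 3.8e-08). Between the tumours its difference of 1.06 (SE 0.46, adjusted p = 0.085) passed without normal brain B2 (1.18), medulloblastoma C4 (1.19) or glioma B3 (1.29).

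Gabra3, an alpha subunit prominent in brainstem, cortex and the developing brain, had 5.3 to 125 (median 22.2) in medulloblastomas and 57.8 to 97.2 (median 77.5) in gliomas, against 23.8, 355 and 92.6 in Gabra6-rich and 228 to 452 (median 379) in the other normal brains. Gliomas were more alike than medulloblastomas and lay above all of them but C1. The log2 differences were -3.35 (SE 0.35, adjusted p = 6.7e-09) in medulloblastoma and -1.90 (SE 0.40, adjusted p = 0.00026) in glioma against normal brain, and -1.45 (SE 0.42, adjusted p = 0.011) between the tumours, a call lost within the prefix YZ (-0.60) and on the mean of all its probe sets (-0.80). Gabrb2, the commonest beta subunit, had 24.7 to 680.2 (median 54.1) in medulloblastomas and 46.4 to 238 (median 104) in gliomas, against 1568, 883 and 1589 in Gabra6-rich and 989 to 1654 (median 1322) in the other normal brains. No tumour reached the lowest normal brain, and the highest medulloblastomas were C6 and B6. Its log2 differences were -3.76 (SE 0.44, adjusted p = 4.9e-08) and -3.49 (SE 0.51, adjusted p = 2.7e-06).

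Gabrd, the delta subunit of tonic extrasynaptic receptors in granule cells and forebrain, had 2.5 to 109.9 (median 12.3) in medulloblastomas and 3.2 to 66.2 (median 11.7) in gliomas, against 682, 143 and 435 in Gabra6-rich and 77.7 to 314 (median 190.4) in the other normal brains. Medulloblastomas B6 and C6 (109.9 and 88.3) alone reached the lowest normal brain. The log2 differences were -3.01 (SE 0.45, adjusted p = 2.1e-06) and -3.16 (SE 0.52, adjusted p = 1.3e-05), the second not called within the prefix YZ2 (-2.91). Gabrg3 was too dim for the test, at 0.6 to 11.6 (median 6.7) in medulloblastomas, 0.4 to 8.7 (median 5) in gliomas and 3.6 to 35.1 (median 14.4) in normal brains.

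The GABA-A genes Gabrg1, Gabra2, Gabra4 and Gabrb1 lie side by side on chromosome 5 (GRCm38.p6 chr5:70751047-72149572), with Cox7b2 as the only other protein-coding gene in the span. Gabra4 and Gabrb1 are read in opposite directions, and the 2 genes overlap at their starts (71658308 for Gabra4 and 71657921 for Gabrb1). The windows before the starts of the neighbours Gabrg1 and Gabra2 are shown because these neighbours had log2 differences of -1.03 and -3.20 in glioma, a contrast that was not tested. They are on the minus strand, at chr5:70842618-70842867 for Gabrg1 and chr5:71095850-71096099 for Gabra2, upstream of each gene in RefSeq GRCm38.p6, and run 5′ to 3′ with the motifs named above in capitals.
Gabrg1: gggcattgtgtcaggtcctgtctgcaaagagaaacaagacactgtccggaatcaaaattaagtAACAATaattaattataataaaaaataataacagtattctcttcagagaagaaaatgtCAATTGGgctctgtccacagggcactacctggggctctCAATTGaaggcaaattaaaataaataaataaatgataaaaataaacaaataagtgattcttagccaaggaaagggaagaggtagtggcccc
Gabra2: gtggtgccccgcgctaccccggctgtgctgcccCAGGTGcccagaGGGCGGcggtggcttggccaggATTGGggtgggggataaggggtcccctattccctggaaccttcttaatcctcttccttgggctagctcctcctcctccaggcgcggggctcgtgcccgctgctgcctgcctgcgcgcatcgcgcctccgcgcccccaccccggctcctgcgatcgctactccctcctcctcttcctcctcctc
The Gabrg1 window was 35.6% G or C and held 2 E-boxes, 1 CCAAT box and 1 SOX motif, with no GC box. The Gabra2 window was 70% G or C and held 1 E-box, 1 GC box and 1 CCAAT box. Over all 32851 windows the median was 52.4%.

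Gabrg1, a gamma subunit of glia and of some forebrain neurons, had 4.4 to 128 (median 30.7) in medulloblastomas and 29.3 to 249.5 (median 94.9) in gliomas, against 98.6, 171 and 94.4 in Gabra6-rich and 141 to 386 (median 241) in the other normal brains. The 2 highest gliomas, Rictor-/- C3 and Rictor+/- B2, lay inside the range of the other normal brains. Gabra2, an alpha subunit of forebrain synapses, had 4.2 to 89.3 (median 14.8) in medulloblastomas and 1.4 to 71.9 (median 24.8) in gliomas, against 144, 133 and 118 in Gabra6-rich and 83.7 to 534 (median 319.7) in the other normal brains, and all gliomas lay below all normal brains. In medulloblastoma the 2 genes differed from normal brain by -2.58 (SE 0.36, adjusted p = 6.8e-07) and -2.87 (SE 0.41, adjusted p = 1.2e-06). In glioma Gabrg1 differed by -1.03 (SE 0.41, adjusted p = 0.037), a call lost under 13 of 43 alternatives (within the prefix YZ it was -0.27), and Gabra2 by -3.20 (SE 0.47, adjusted p = 3.4e-06). The Gabrg1 call was lost without any 1 of gliomas B7, A4, B1 and B3 (-0.74, -0.88, -1.03 and -1.04) or of normal brains C1, B6, B7 and B1 (-0.96, -0.99, -0.95 and -0.98). Between the tumours Gabrg1 was -1.55 (SE 0.44, adjusted p = 0.0086), lost without glioma C3 (-1.13) and within either prefix (-1.43 in YZ and -0.88 in YZ2), and Gabra2 0.33 (SE 0.50, adjusted p = 0.67). Gabrb1, a beta subunit, changed by -3.12 (SE 0.42, adjusted p = 3.6e-07) in medulloblastoma and -3.25 (SE 0.48, adjusted p = 3e-06) in glioma, with glioma B3 (476) above the other gliomas (up to 85.1). Its glioma difference was -2.24 and not called within the prefix YZ2.

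**Figure D4:**
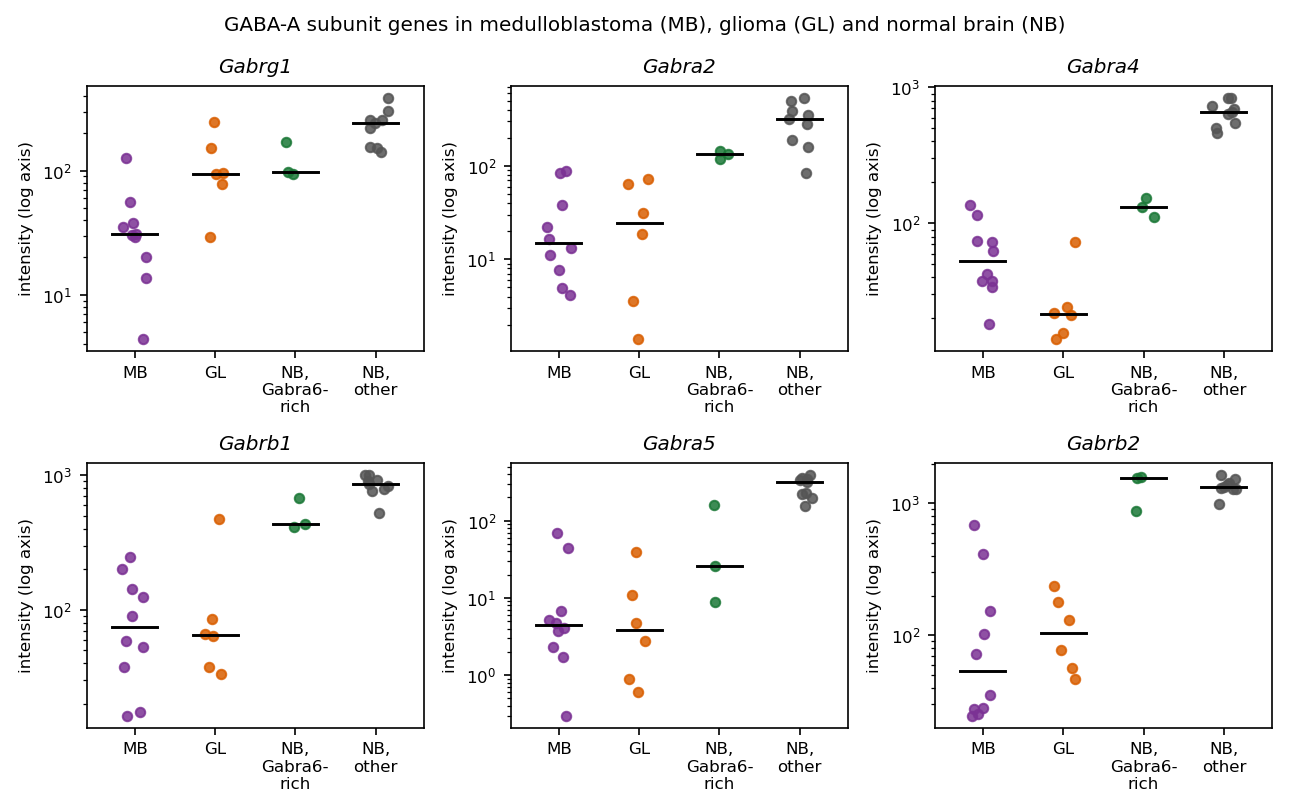
Intensity on a log axis of 6 GABA-A subunit genes in medulloblastoma (MB), glioma (GL) and normal brain (NB), split into Gabra6-rich and other arrays; points are arrays and bars are group medians. Gabrg1 gliomas overlap normal brain, while all gliomas lie below all normal brains for Gabra2, Gabra4 and Gabrb2.

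Gabbr1, which carries the ligand site of the GABA-B receptor, fell in both tumours without overlap. It had 129 to 685 (median 279) in medulloblastomas and 98.9 to 378 (median 251) in gliomas, against 1490.3, 1324 and 1825 in Gabra6-rich and 1132 to 1648 (median 1583) in the other normal brains. The log2 differences were -2.23 (SE 0.24, adjusted p = 1e-08) and -2.61 (SE 0.27, adjusted p = 2.2e-08). The log2 means of the Gabra6-rich and the other 9 normal brains differed by 0.01.

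The Gabra6-rich normal brains are set against the other 9 as a description, with no test, since they were picked by the level of a receptor gene. Of the 29 tested members, 3 lay above all of the 9 in all 3 arrays (Gria4, Grin2c and Grm4), where 8.96% of all genes did so, and 8 lay below them (Gria2, Gria3, Grin2b, Grik5, Grm3, Grm5, Grm8 and Gabra4), where 9.16% did. The count above was thus near the share of all genes. Differences of log2 means were 2.50 for Grin2c, 1.88 for Gria4 and 1.48 for Grm4, and -3.26 for Grm5, -2.91 for Grin2b and -2.24 for Gabra4. The granule neuron markers had a mean log2 level of 8.20 to 9.58 in these 3 and 5.59 to 7.04 in the other 9. That list includes Gabra6, the gene that picked the 3 arrays, so part of this contrast was fixed by the choice. The summed Purkinje cell markers were 7103 to 19059 (median 14505) in these 3 and 1406 to 2174 (median 1802) in the other 9. The 3' to 5' ratio was higher in Z2 and B2 than in any of the other 9 but not in C5, at 6.21, 6.01 and 3.45 for actin in Z2, B2 and C5 against 1.99 to 4.95 (median 3.18) in the other 9, and for Gapdh 1.88, 2.58 and 1.18 against 0.972 to 1.52 (median 1.04). The part of these in the receptor levels was not tested. The 3 arrays were not alike: Gabra3 had 23.8, 355 and 92.6 in Z2, B2 and C5. Z2 is the only array from a normal mouse, so its genotype and its Gabra6 level cannot be told apart. Without these 3 arrays, 25, 21 and 12 members were called for medulloblastoma, for glioma and between the tumours, against 25, 22 and 11 with them. Without all 7 arrays rich in Gabra6, tumours included, a choice made after seeing the data, the counts were 26, 20 and 11.

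**Figure D5:**
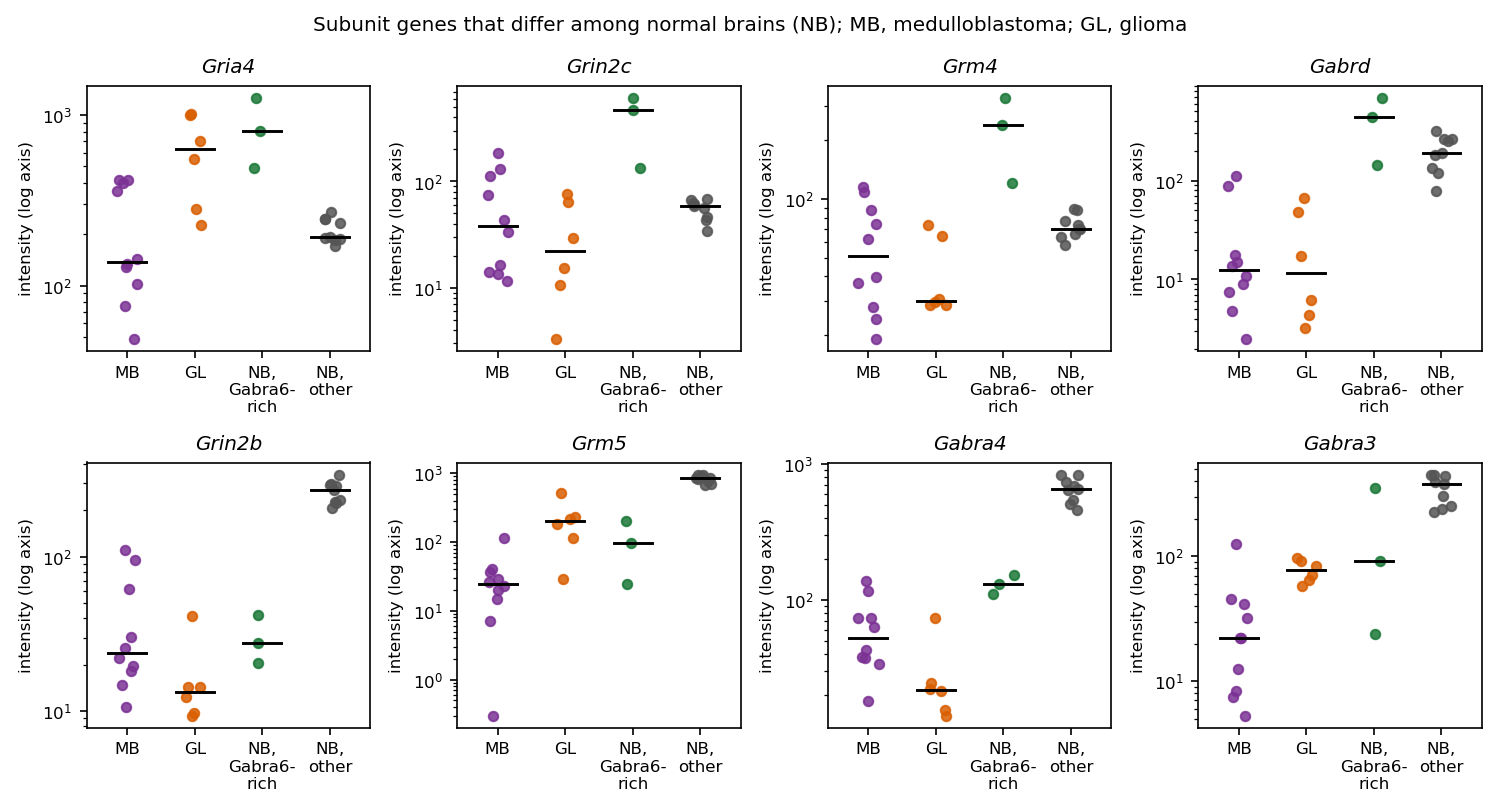
Intensity on a log axis of 8 subunit genes in medulloblastoma (MB), glioma (GL), the 3 Gabra6-rich and the 9 other normal brains (NB); points are arrays, bars are medians, and the genes were chosen after their values were seen. Gria4, Grin2c and Grm4 are higher and Grin2b, Grm5 and Gabra4 lower in all 3 Gabra6-rich arrays than in any of the other 9.

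Tumours of one type were uneven. Of the 29 tested members, the highest medulloblastoma was C1 for 10, C6 for 7 and A6 for 4, while C2 was the lowest for 9. The mean log2 level of the 10 mature neuron markers was 9.41 in C6, 9.17 in C1 and 8.88 in B6, above the 7.70 or less of the other 7 medulloblastomas. Among gliomas, B7 was the highest for 11 members and B3 for 7, and B1 the lowest for 11. The same marker mean was 8.43 in B3, 8.07 in B7 and 5.42 in B1. The part of these markers in the receptor levels was not tested.

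Around the receptors, all 7 tested genes of GABA synthesis, packing, uptake and breakdown were lower in both tumours, with median log2 differences of -2.78 in medulloblastoma and -2.01 in glioma. In medulloblastoma the vesicular GABA transporter Slc32a1 differed by -4.28 (SE 0.47, adjusted p = 1.6e-08), and the GABA-making enzymes Gad2 and Gad1 by -4.13 (SE 0.41, adjusted p = 2.9e-09) and -3.98 (SE 0.52, adjusted p = 2.4e-07). In glioma these 3 differed by -3.83, -3.98 and -2.61. Of 11 tested genes of glutamate transport and turnover, 7 were lower in medulloblastoma (median -0.81) and 3 in glioma (median -0.48), with 2 higher in glioma (Slc1a4 and Slc38a2, carriers of neutral amino acids). Over all genes 32% were called lower in medulloblastoma and 25.5% in glioma, so the count of glutamate handling genes lower in glioma was near the share of all genes, and the count higher was under the 28.4% of all genes. The vesicular glutamate transporter Slc17a6 separated the tumours, with 3.46 (SE 0.67, adjusted p = 0.00027) between medulloblastoma and glioma, -0.41 and no call in medulloblastoma against normal brain, and -3.87 (SE 0.63, adjusted p = 1.1e-05) in glioma.

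Among 27 tested auxiliary subunits and scaffolds of glutamate receptors, 18 were lower in medulloblastoma (median -1.48) and 18 in glioma (median -1.28). The single one higher in glioma was Cacng4, a transmembrane partner of AMPA receptors, with 2.76 (SE 0.31, adjusted p = 7.5e-08), and the single one higher in medulloblastoma was the scaffold Homer2, with 1.10 (SE 0.40, adjusted p = 0.018). Cacng2, the AMPA receptor partner known as stargazin, had the opposite order to Cacng4 between the tumours: medulloblastoma differed from glioma by 2.57 (SE 0.38, adjusted p = 9.2e-06) for Cacng2 and -3.19 (SE 0.33, adjusted p = 5.8e-08) for Cacng4. Cacng4 had 20.5 to 194 (median 71.1) in medulloblastomas, 329 to 965 (median 671) in gliomas and 37.6 to 134 (median 77.2) in normal brains. Cacng2 had 53.2 to 528 (median 176) in medulloblastomas, 4 to 66.5 (median 36.6) in gliomas and 189 to 466 (median 280.1) in normal brains. Of 9 tested anchors and partners of GABA receptors, 6 were lower in medulloblastoma (median -0.74) and 4 in glioma (median -0.29), and the chloride exporter Slc12a5 fell most, with -4.28 (SE 0.57, adjusted p = 3.4e-07) and -3.93 (SE 0.65, adjusted p = 1.6e-05). Of 7 tested subunits outside the 33, glycine receptor subunits included, 5 were lower in medulloblastoma (median -1.71) and 3 in glioma (median -1.14). Beside these list counts, 32% of all genes were called lower in medulloblastoma and 25.5% in glioma.

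No receptor gene passed the test between Rictor genotypes. Rictor-/- medulloblastomas (n = 5) were compared with those of p53-/- alone (n = 3), and 0 of 29 members were called, where 0.00718% of all genes were (limma), with 1 member at an unadjusted p under 0.05. Against Rictor+/- medulloblastomas (n = 2), 0 members were called, where 0.00718% of all genes were, and 0 were at an unadjusted p under 0.05. Rictor-/- normal brains (n = 5) set against Rictor+/- ones (n = 5) gave 0 calls, where 0% of all genes were called, and 1 member at an unadjusted p under 0.05. These single members were Grm4 in medulloblastoma, at 1.01 (SE 0.43, adjusted p = 0.98), and Gabra3 in normal brain, at -0.75 (SE 0.32, adjusted p = 1). Log2 differences of the 29 ran from -0.77 to 1.32, from -0.68 to 0.94 and from -0.75 to 0.40 in the 3 comparisons. Standard errors of up to 1.15 in the medulloblastomas mean that differences of that size were not detectable with these samples. The single Rictor-/- glioma, C3, has no replicate. Its intensities of 256 for Grin3a, 226 for Grik3 and 869.9 for Gria3 lay inside the range of the other gliomas. The single glioma of p53-/- alone, A4, had 512, 197 and 912. Of the 29 tested members, C3 was the highest glioma for 1, Gabrg1 (249.5). It was the lowest for 2, Grm2 (1.6) and Gabrb1 (33.5).

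Other probe sets of the same genes mostly gave the same result, be it a call or no call. Among the tested members, 18 had at least 1 more probe set above the brightness limit, 28 in all. Of these, 23 matched the brightest in medulloblastoma against normal brain, 23 in glioma against normal brain and 25 between the tumours. A match is a call in the same direction, or no call for both. Of the members called lower between the tumours, Gabrg1, Gria3, Grid1, Grin3a and Grm5 had matching other probe sets. Those of Gabra3 and Gria4 were not called. The 1 called in the opposite direction was that of Gria4 in glioma, described above.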

How the data were processed

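The authors made the deposited intensity values, linear and 1 per probe set and array, with MAS5 and GCOS, per the submitters' processing notes, which name no version. The arrays had been scaled to a trimmed mean of 100 (2% trimmed at each end, from the values), with medians of 18.8 to 27.8. Precision is set by how many arrays a group has.

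The platform's annotation gave names: 34945 of 45101 probe sets had 1 symbol, 932 several and 9224 none, controls included. The 33 members had 71 probe sets of their own, 9 members with 1 and none with over 5. From the intensities, log2(intensity + 6.3), with the 25th percentile of the table as pseudocount, was computed here. Genes were tested where their brightest probe set averaged more, on that scale, than 30% of probe sets did (over 3.89).

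Tissue differences came from 1 limma fit (lmFit, eBayes with trend) over 28 arrays with tissue and genotype as terms. Z2 had a genotype of its own and added nothing to them. Genotypes were compared in fits of the 10 medulloblastomas and the 12 normal brains. Adjusted p-values are two-sided, Benjamini-Hochberg adjusted over all genes tested, and called under 0.05. The fits were tested on simulated data. Alternatives were pseudocounts of 1 and 32, no filter, quantile normalization, the mean of all probe sets, tissue alone, the title prefix, the title code as a block, and leaving out single arrays or the sets of arrays named in the text; leaving out all 7 Gabra6-rich arrays and fitting single probe sets were added after seeing the data.

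Members and lists were chosen with earlier results of these data known. All members could be named, with up to 3 called genes of each pathway list and comparison that changed most; Slc1a4, Slc38a2, Homer2, Cox7b2 and Rictor were named outside this rule, and Slc1a4, Slc38a2 and Homer2 after their values were seen. Sequences and gene positions are from RefSeq tables of GRCm38.p6; the array annotation states no build. Fits ran in limma 3.58.1 under R 4.3.3; summaries, motif searches and plots used pandas 2.3.3, numpy 2.4.6 and matplotlib 3.10.9 in Python 3.11.15.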

Additional observations from a re-analysis of the deposited data

Results flagged for a closer look

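Within groups of 4 to 10 arrays, the value most distant from the rest was set against the 95% critical value of Dixon's ratio for 29 genes in 6 groups. Of 174 sets of values 24 exceeded it, where chance gives about 1 in 20 for independent sets. These sets are not independent, since genotype groups lie within the tumour groups. Normal brains B2 and C5 had also been set apart as Gabra6-rich. The excess over 1 in 20 therefore cannot be weighed. Glioma B3 stood above the other gliomas for Grin2b (41.2), Gabra4 (73.3) and Gabrb1 (476), and did so again among the 4 Rictor+/- gliomas.

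Normal brain B2, one of the Gabra6-rich arrays, was lowest among the 5 Rictor+/- normal brains for Gria1 (271), Gria2 (767), Grin2b (41.8), Grm5 (201), Gabra4 (111) and Gabrb2 (883), and highest for Grm4 (121). Normal brain C5, another of them, was highest among the 5 Rictor-/- normal brains for Gria4 (804) and Grin2c (468), and lowest for Grin2b (27.8), Grm5 (96.1), Grm7 (188), Grid1 (29.7) and Gabrb1 (415). Normal brain B1 was highest among the Rictor+/- ones for Grik2 (162).

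Among Rictor-/- medulloblastomas, C6 was highest for Grm2 (29.2) and Gabrd (88.3), and C2 lowest for Gabrg1 (4.4). Grin3a was called in opposite directions against normal brain in medulloblastoma and glioma, and the difference itself, medulloblastoma minus glioma, was -2.82 on the log2 scale (limma, adjusted p = 2.1e-08).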

How the results depend on the processing

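Over all alternatives, 22 to 27 members were called in medulloblastoma against normal brain, 16 to 23 in glioma against normal brain and 5 to 12 between the tumours; leaving out 1 array gave 25 to 26, 19 to 23 and 9 to 12. The count between the tumours fell to 6 within the prefix YZ, 7 within YZ2 and 5 with the title code as a replicate block; the cause was not tested. These fits hold fewer arrays, or spend degrees of freedom on the codes. The count was 0 in all 3 genotype comparisons under every alternative run. Of 1247 values for single members in glioma against normal brain, 63 lost their call, 6 gained one and 1 turned: Grin2c within the prefix YZ2, at 0.12. For medulloblastoma 5 lost and 6 gained a call, and between the tumours 22 and 7. Whether codes shared by tumours and normal brains mark 1 animal is not stated, and the values left it unsettled: 7 of 11 correlations of same-code deviations exceeded 0.1 (-0.12 to 0.35), and 4 were best with their own code. The calls between the tumours lost under the block were those of Gabra3, Gabrg1, Gria4, Grid1, Grik5 and Grm5. Under the block 25 and 17 members were called in medulloblastoma and glioma. Dim signals limit genes such as Gabra5, Grik1 and Gabrd in tumours, where values near the pseudocount understate differences.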
